A study of Coturnix japonica with 15 samples.

Results

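APOB and MTTP encode a pair of proteins on which the liver depends to build lipoproteins. They were located by their NCBI gene IDs, 107312270 for APOB and 107313645 for MTTP, and make up 2 of the 20308 gene IDs in the table of estimated read counts. Each gene had 1 entry in that table, so the summed value per gene is the value of that entry. The RNA was total RNA from the left liver lobe of Japanese quail, Coturnix japonica, taken on embryonic day 9, and no genetic modification is given for any group. Each egg was given 10 µl through the air cell and was then incubated at 37 °C with a humidity of 60%. The 3 groups, of 5 libraries each, were the solvent DMSO, 3.33 µg of ethinylestradiol (EE2) per g of egg and 33.3 µg of EE2 per g of egg. EE2 is a synthetic oestrogen. The labels do not say that each library is a separate embryo, so p-values measure the spread between libraries, which may in part be technical.

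Apolipoprotein B is the large structural protein of very low density lipoprotein, and each particle carries a single copy of it. In the endoplasmic reticulum, the microsomal triglyceride transfer protein, which MTTP encodes, works with the protein disulphide isomerase P4HB to load lipid onto apolipoprotein B as it is made. In laying birds oestrogen turns the liver towards yolk production, and the particles made there are taken up by the oocyte. The comparisons asked how the transcripts of both proteins stood in the embryonic liver after an oestrogen given before incubation, and whether they moved together.

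Library totals ran from 21726195 to 32140126 counts with solvent. They ran from 22075439 to 37046558 counts with 3.33 µg/g, and the 33.3 µg/g libraries had 21715273 to 54591426. Of 12 hepatocyte markers 11 were in the table, all with counts in every group. Their summed level was 65889 to 179597 CPM (counts per 1e+06 counts of the scaled library) at 3.33 µg/g and 85265 to 179898 CPM at 33.3 µg/g, against 157834 to 192212 CPM with solvent. Albumin took 4.85% of the counts in 3.33 µg/g replicate 4 and 5.87% in 33.3 µg/g replicate 1, where the 13 other libraries had 9.71% to 13.3%. These libraries had the lowest hepatocyte sum of their dose, but albumin is part of that sum. It gave 40528 of 65889 CPM in the first and 51924 of 85265 CPM in the second. The rest of the sum, without albumin, was also the lowest of its dose in each of these libraries. The values of APOB, MTTP, their ratio and the genes called among the pathway lists are also given without both libraries. In bulk tissue, fewer cells of a type and less RNA per cell cannot be told apart.

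APOB rose about 3-fold with EE2, at both doses. With solvent, APOB stood at 7540.3, 6823, 7820.03, 6140.3 and 6252 CPM in replicates 1 to 5. At 3.33 µg/g it stood at 21538, 30453, 25406, 18682 and 18040.2 CPM. At 33.3 µg/g it stood at 16787, 21606, 19761, 18188 and 22107 CPM. The lowest library with EE2 was more than 2 times the highest with solvent, so the groups did not overlap, while the ranges of the doses did. The widest spread was at 3.33 µg/g, where replicates 2 and 3 were the highest of all libraries.

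**Figure D1:**
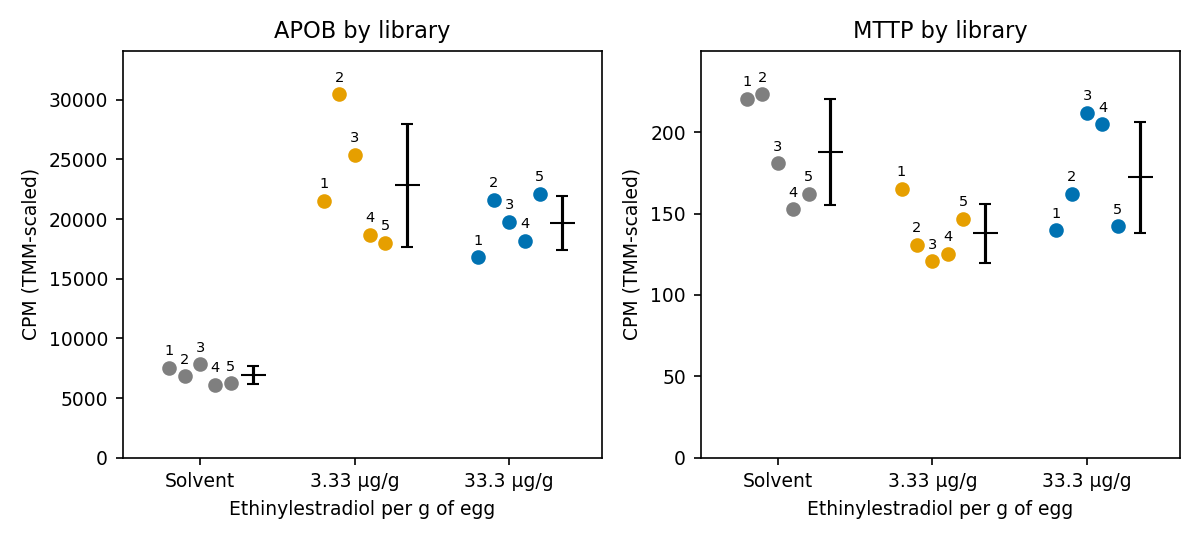
Normalised read counts (CPM, TMM-scaled) of APOB (left) and MTTP (right) for each library, by EE2 dose per g of egg. Numbered points are replicates and the bar beside them is the mean ± SD of 5 libraries. All 10 EE2 libraries lie above all 5 solvent libraries for APOB, while the MTTP groups overlap.

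At 3.33 µg/g APOB averaged 22824 ± 5162 CPM, against 6915 ± 751 CPM with solvent (SD, n = 5 each). The ratio was 3.30, with a 95% interval of 2.63 to 4.15 (log2 fold change 1.72, SE 0.16, edgeR adjusted p = 2.50e-05). At 33.3 µg/g it averaged 19689.8 ± 2247 CPM, against the same solvent mean, and the ratio was 2.85 with an interval of 2.27 to 3.57 (log2 fold change 1.51, SE 0.15, edgeR adjusted p = 0.000102). Both comparisons share the solvent libraries. With both doses together against solvent the ratio was 3.07 (2.49 to 3.78; edgeR adjusted p = 1.73e-05), and 10 of 10 EE2 libraries were above every solvent library. Among the 14508 genes tested, 1.07% were called higher at 3.33 µg/g, 0.937% at 33.3 µg/g and 1.39% with the doses together, and in either direction 1.38%, 1.08% and 1.96%. Every EE2 library was above every solvent library for 2.3% of genes at the lower dose, 1.84% at the higher dose and 0.986% with the doses together. Leaving out any 1 library gave log2 fold changes of 1.60 to 1.80 with 3.33 µg/g and 1.46 to 1.56 with 33.3 µg/g, all past the threshold.

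The share of all counts that came from APOB was also higher in every EE2 library. It was 0.597% to 0.758% with solvent and 1.74% to 3.09% at 3.33 µg/g. The 33.3 µg/g libraries had 1.81% to 2.05%. Counting error was small beside these differences. The highest share, 3.09% in 3.33 µg/g replicate 2, had a 95% Wilson interval of 3.08% to 3.09%, and the lowest, 0.597% in solvent replicate 4, one of 0.594% to 0.600%. Intervals of this kind cover counting error only. For this replicate 2 and for 33.3 µg/g replicate 2, the file writes the APOB count with 3 significant digits.

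The step to the higher dose brought no further rise in APOB that these libraries could show. APOB at 33.3 µg/g was 0.863 of its level at 3.33 µg/g, with a 95% interval of 0.691 to 1.08 (log2 fold change −0.21, SE 0.15, edgeR adjusted p = 0.947). The interval reaches from a lower level to one barely higher, so a rise above 1.08-fold lies outside it. Over all genes, edgeR called 0 (0%) between the doses, where 805 had an unadjusted p under 0.05, limma-voom called 0 and DESeq2 called 19. No overlap between the doses was seen for 0.31% of genes in the upward and 0.345% in the downward direction.

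Without both libraries of low albumin share the log2 fold change of APOB was 1.79 at 3.33 µg/g and 1.56 at 33.3 µg/g (edgeR adjusted p = 6.47e-05 and 0.000143). In these libraries APOB had 18682 CPM at 3.33 µg/g and 16787 CPM at 33.3 µg/g, at the low end of each dose and above every solvent library. The ratio of APOB to albumin counts was 0.167 to 0.461 with 3.33 µg/g and 0.155 to 0.323 with 33.3 µg/g, against 0.0539 to 0.0647 with solvent. The highest ratio of each dose was in its library of low albumin, where the low denominator sets it.

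**Figure D2:**
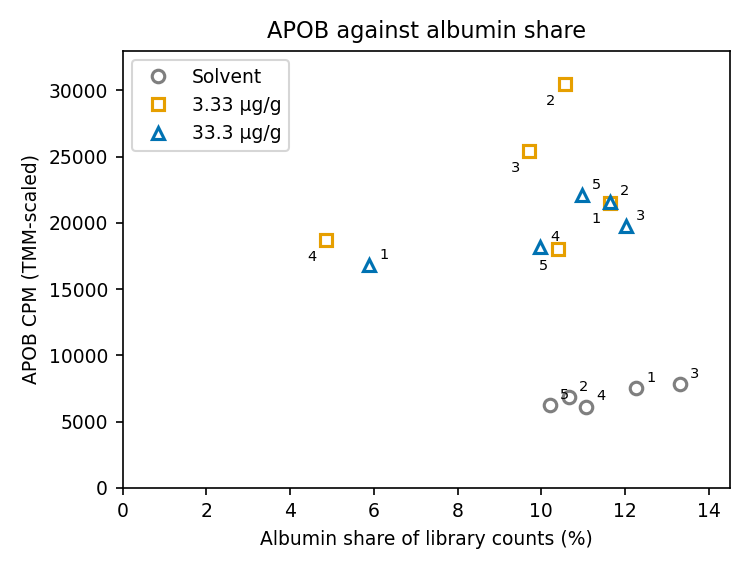
APOB level (CPM, TMM-scaled) against the share of library counts taken by albumin (%), with one numbered symbol per library and the symbol giving the dose. The EE2 libraries with an albumin share of 4.85% and 5.87% have 18682 and 16787 CPM of APOB, above every solvent library.

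Of the 11 hepatocyte markers, 8 had log2 fold changes below 0 at each dose, with medians of −0.53 at 3.33 µg/g and −0.26 at 33.3 µg/g, against 0.00 for all genes tested. At 3.33 µg/g 1 passed as higher and 0 as lower, and at 33.3 µg/g 1 and 2 did. Of all genes 1.07% were called higher and 0.31% lower at 3.33 µg/g, and 0.937% and 0.145% at 33.3 µg/g. An unadjusted p under 0.05 was seen for 9 and 7 of the 11 at 3.33 and 33.3 µg/g, and for 2121 and 1560 of all 14508 genes. The markers were not tested as a set. RBP4, the plasma retinol carrier, rose at 3.33 µg/g (log2 fold change 0.78, edgeR adjusted p = 0.00465) and at 33.3 µg/g (0.70, adjusted p = 0.0115). AHSG and CPS1 also had values above 0, of 1.25 and 1.97 at 3.33 µg/g and 2.52 and 2.76 at 33.3 µg/g. Neither passed (edgeR adjusted p = 0.0564 to 0.321). The fibrinogen chain genes FGB and FGG fell at 33.3 µg/g (−1.05 each, edgeR adjusted p = 0.0454 and 0.0410). The other chain gene, FGA, had −1.01 at that dose, just short of the threshold (edgeR adjusted p = 0.0552). These marker values include both libraries of low albumin share and are not given without them. Markers of other tissues were also set beside APOB. At each dose 0 passed of 7 endothelial markers and 8 of stellate cells or mesenchyme. The same held for the 3 of 12 erythroid markers in the table. With 1.38% and 1.08% of all genes called at 3.33 and 33.3 µg/g, such counts say nothing particular. In this order of doses the medians were −0.02 and −0.15 for endothelium and 0.14 and 0.10 for mesenchyme. They were 0.25 and 0.11 for the erythroid markers. Of 10 markers of intestinal or yolk sac epithelium, all 10 were in the table, with a sum of 64.8 to 139.7 CPM at 3.33 µg/g, and of 94.1 to 136 CPM with 33.3 µg/g, against 66.9 to 111 CPM with solvent. Most of this sum was 1 gene, AMN, so it says little about the others. AMN averaged 76.9 ± 28.6 and 85.2 ± 26.4 CPM at 3.33 and 33.3 µg/g, against 63.7 ± 12.8 CPM with solvent (edgeR adjusted p = 0.670 and 0.609). The intestinal regulator CDX1 was at 0 counts in all EE2 libraries, CDX2 averaged 0.811 ± 0.425 and 0.915 ± 0.757 CPM at 3.33 and 33.3 µg/g against 0.893 ± 0.377 CPM with solvent, and the brush border gene VIL1 was below 1 CPM in every library. Of these 10 markers 8 were tested, with 6 values above 0 at each dose and medians of 0.33 at 3.33 µg/g and 0.22 at 33.3 µg/g. Of all 14508 genes, 7368 and 7252 were above 0 at these doses, with medians of 0.00. None of the 8 passed at 3.33 µg/g. At 33.3 µg/g, where 0.937% of all genes were called higher, 1 did, CUBN, an endocytic receptor of absorptive epithelia. It stood at 2.05 to 6.28 CPM at 3.33 µg/g and 1.07 to 11.9 CPM at 33.3 µg/g, against 0.0747 to 0.855 CPM with solvent. CUBN rose at 33.3 µg/g (log2 fold change 3.72, edgeR adjusted p = 0.0201). At 3.33 µg/g its log2 fold change was 3.06, just short of the threshold (edgeR adjusted p = 0.0518). CDH17, a cadherin of the intestinal epithelium, averaged 5.68 ± 2.32 and 4.31 ± 1.09 CPM at 3.33 and 33.3 µg/g, against 1.83 ± 1.27 CPM with solvent. It did not pass at either dose (edgeR adjusted p = 0.0518 and 0.196) and passed with the doses together (log2 fold change 1.44, adjusted p = 0.0496). SLC5A1, the glucose cotransporter gene, had log2 fold changes of 1.15 and 1.18, and FABP2, a fatty acid binding protein gene of enterocytes, −1.97 and −0.94 (edgeR adjusted p = 0.200 to 0.713). The part of these markers in the APOB result was not tested. Of 7 macrophage markers listed 6 were tested, and 1 rose at 3.33 µg/g, where 1.07% of all genes were called higher. It was the complement gene C1QB (log2 fold change 0.87, edgeR adjusted p = 0.0234), and at 33.3 µg/g 0 passed. The macrophage sum was 42.8 to 109.6 CPM at 3.33 µg/g and 30.0 to 47.7 CPM at 33.3 µg/g, against 29.6 to 46.7 CPM with solvent. Of 6 kidney markers 3 were in the table, with a sum of 27.2 to 194 CPM at 3.33 µg/g and 24.9 to 52.4 CPM at 33.3 µg/g, against 15.3 to 52.9 CPM with solvent. Most of this sum was 1 gene, SLC12A1, so it says little about the others. SLC12A1 stood at 24.2 to 193 CPM at 3.33 µg/g and 22.3 to 50.5 CPM at 33.3 µg/g, against 12.2 to 51.3 CPM with solvent. It did not pass at either dose (edgeR adjusted p = 0.165 and 0.988). SLC34A1 had log2 fold changes of −0.56 and −0.36 at 3.33 and 33.3 µg/g (edgeR adjusted p = 0.596 and 0.8545). The highest kidney sum was in 3.33 µg/g replicate 2, which also had the most APOB, and its part in that value was not tested.

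MTTP did not rise with APOB. It stood at 221, 223, 181, 153 and 162 CPM with solvent in replicates 1 to 5. With 3.33 µg/g it stood at 165, 131, 121, 125 and 147 CPM. With 33.3 µg/g it stood at 139.7, 162, 212, 205 and 142 CPM. In the 3.33 µg/g group 4 of 5 libraries were below every solvent library, replicate 1 being the exception, and at 33.3 µg/g 2 of 5 were, replicates 1 and 5. Every EE2 library was below every solvent library for 1.6% of genes at the lower dose, 1.07% at the higher dose and 0.303% with the doses together. This is a stricter condition, which MTTP did not meet. How many genes had a partial overlap like that of MTTP was not counted, so its counts of libraries have no background beside them.

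At 3.33 µg/g MTTP averaged 138 ± 18.3 CPM, against 188 ± 32.6 CPM with solvent (SD, n = 5 each). The ratio was 0.733, with a 95% interval, not adjusted for the number of genes, of 0.590 to 0.910 (log2 fold change −0.45, SE 0.15). This did not pass over all genes (unadjusted p = 0.00791, edgeR adjusted p = 0.156). At 33.3 µg/g it averaged 172 ± 34.3 CPM against that solvent mean, a ratio of 0.916 with an interval of 0.738 to 1.14 (log2 fold change −0.13, SE 0.15, edgeR adjusted p = 0.851). With both doses together against solvent the ratio was 0.820 (0.681 to 0.986, edgeR unadjusted p = 0.0368, adjusted p = 0.298). Of 10 EE2 libraries 6 were below every solvent library, again without a background over all genes. Genes called lower made up 0.31% of those tested at 3.33 µg/g, 0.145% at 33.3 µg/g and 0.579% with the doses together. A rise of MTTP as large as that of APOB lies outside all 3 intervals, whose upper ends were 0.910, 1.14 and 0.986.

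Between the doses MTTP was 1.25 times as high at 33.3 as at 3.33 µg/g, with an unadjusted 95% interval of 1.01 to 1.55 (log2 fold change 0.32, SE 0.15, edgeR adjusted p = 0.877). The depth behind MTTP was 2807 to 8414 counts per library. The fewest MTTP counts were in replicate 3 of the 3.33 µg/g dose, where its share of 0.0125% had a Wilson interval of 0.0120% to 0.0129% from counting error. Such intervals overlapped between some libraries of a group, among them solvent replicates 1 and 2 and 33.3 µg/g replicates 3 and 4. Without both libraries of low albumin share the log2 fold change of MTTP was −0.41 at 3.33 µg/g and −0.06 at 33.3 µg/g (edgeR adjusted p = 0.258 and 0.957).

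**Figure D3:**
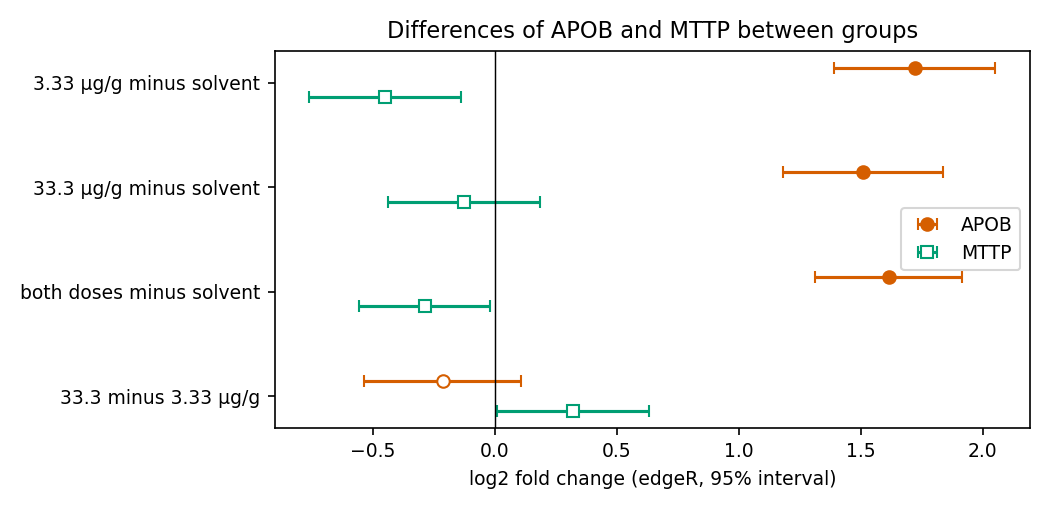
Log2 fold changes of APOB (circles) and MTTP (squares) with 95% intervals, unadjusted for the number of genes, from the fit of all 15 libraries. Filled symbols passed an adjusted p under 0.05: APOB in each comparison with solvent, at 1.51 to 1.72, and no MTTP value.

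The balance between both transcripts, taken within each library so that the scaling of libraries cancels, differed between the EE2 and solvent groups. The ratio of APOB to MTTP counts was 34.2, 30.6, 43.2, 40.2 and 38.6 with solvent in replicates 1 to 5. It was 130.3, 233, 211, 149 and 123 at 3.33 µg/g. It was 120.2, 133, 93.2, 88.7 and 155 at 33.3 µg/g. APOB has the longer transcript, so the size of the ratio is not one of molecules, and only its change between libraries can be read. The lowest ratio with EE2, 88.7, was above the highest with solvent, 43.2, and the doses overlapped.

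The mean ratio was 169 ± 49.5 at 3.33 µg/g, against 37.3 ± 4.996 with solvent (SD, n = 5 each), a log2 difference of 2.14 (exact two-sided permutation test, p = 0.00794, adjusted over 3 comparisons p = 0.0119). It was 118 ± 27.9 at 33.3 µg/g, a log2 difference of 1.64 against solvent (exact permutation p = 0.00794, adjusted p = 0.0119). The p of 0.00794 is the smallest that 5 libraries against 5 allow. Between 33.3 and 3.33 µg/g the log2 difference was −0.50, which did not pass (exact permutation p = 0.0952, adjusted p = 0.0952). With the difference of medians in place of means, both comparisons with solvent had an adjusted exact permutation p of 0.0714. Without both libraries of low albumin share the log2 differences were 2.18 and 1.63 (adjusted exact permutation p = 0.0119 each). APOB and MTTP were chosen for their shared role and with their fold changes known, so these tests describe a difference that the fold changes already show.

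**Figure D4:**
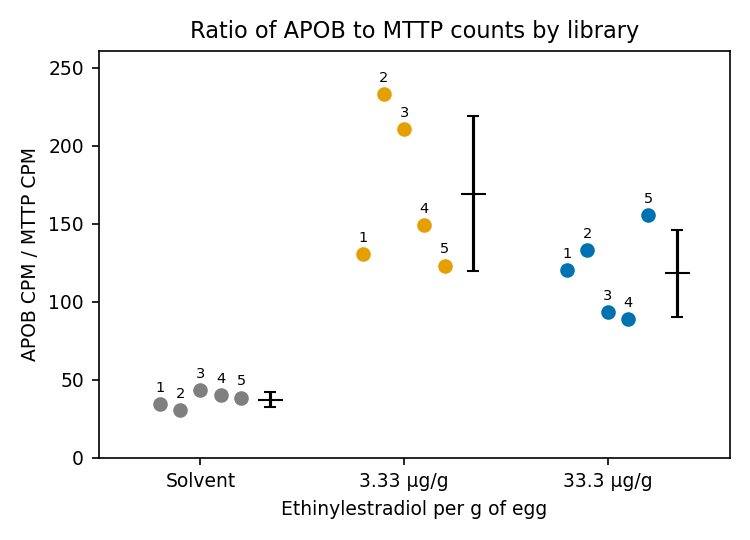
Ratio of APOB CPM to MTTP CPM in each library by EE2 dose per g of egg, with replicate numbers and the mean ± SD of 5 libraries. The solvent libraries lie between 30.6 and 43.2, below every EE2 library, and 3.33 µg/g replicates 2 and 3 are the highest at 233 and 211.

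No correlation between APOB and MTTP levels passed after adjustment, and its size depended on which libraries were used. Over the 10 EE2 libraries, Pearson's r of log2 CPM was −0.37 and Spearman's rho −0.31 (permutation p = 0.281 and 0.384, adjusted over 6 such tests 0.561 and 0.576). Without both libraries of low albumin share, a choice made after the data were seen, r was −0.69 and rho −0.71 over 8 libraries (exact permutation p = 0.0426 and 0.0576, both 0.173 when adjusted). Without 3.33 µg/g replicates 2 and 3, the libraries farthest from the median of APOB, r was 0.11. Centred on the mean of each dose, r was −0.19 and rho −0.16 (permutation p = 0.604 and 0.659, both 0.659 when adjusted). The coefficient of variation of APOB was 22.6% at 3.33 µg/g and 11.4% at 33.3 µg/g, against 10.9% with solvent, and that of MTTP 13.3% and 19.9%, against 17.4%. For genes of at least 100 CPM the median coefficients were 14.6%, 12.5% and 10.3% in the same order of groups.

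Among 10602 other genes with a symbol and a mean of at least 1 CPM, those with the pattern most like that of APOB over 15 libraries were KIF3C, a kinesin motor subunit (Pearson's r = 0.98), MOCOS, which sulphurates the molybdenum cofactor (0.97), SPATA1 (0.96), CKMT2, a mitochondrial creatine kinase (0.96), and NR2F1, a nuclear receptor (0.95). MTTP had r = −0.50 with APOB in this measure, which holds the difference between groups. For MTTP the most alike were ARHGEF26, a guanine nucleotide exchange factor, and FGFR4, the fibroblast growth factor receptor of hepatocytes (both 0.90). G6PC, the last enzyme of glucose release, had 0.89, and TPST1, a tyrosylprotein sulphotransferase, and CXXC5, a zinc finger protein, had 0.88 each.

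After the group means were taken out, other genes came first. Those most like APOB were then ITPRID2 (r = 0.90), the endoplasmic reticulum transcription factor gene CREB3L2 (0.87), OLFM1 (0.86), LRP4 (0.86) and ATF7IP (0.86). Those most like MTTP were PCGF6 (0.88), FGFR4 (0.85), GABRB1 (0.84), SCAP, which escorts the sterol-regulated transcription factors (0.84), and RCC2 (0.84). APOB and MTTP had r = 0.01 with each other. These values of r are descriptions over 15 libraries, whose depths and doses are common to all the genes compared.

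None of the genes tested beside APOB and MTTP on the chromosomes passed, and they were picked by position after the values were seen. The order was taken from the assembly Coturnix japonica 2.1, which may not be the one behind the counts. Of the 3 protein-coding genes on each side of APOB, 5 were tested, HS1BP3, GDF7, LDAH, KLHL29 and ATAD2B, with log2 fold changes of −0.17 to 0.09 with 3.33 µg/g and −0.39 to 0.03 with 33.3 µg/g and adjusted p of 0.461 to 0.962. TDRD15, next to APOB, was too low to test, at 0.296 and 0.226 CPM at 3.33 and 33.3 µg/g against 0.0794 CPM with solvent. Around MTTP, TRMT10A, C4H4orf17, DAPP1, LAMTOR3 and LOC107313657 were tested and none passed (adjusted p = 0.256 to 0.991).

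Of 19 genes listed for lipid loading and folding in the endoplasmic reticulum, 17 were tested, and 1 rose and 0 fell at each dose, where 1.07% and 0.937% of all genes were called higher at 3.33 and 33.3 µg/g. The median log2 fold change of the list was 0.17 at 3.33 µg/g and 0.24 at 33.3 µg/g, against 0.00 for all genes tested at both doses. An unadjusted p under 0.05 was seen for 7 and 6 of the 17, and for 2121 and 1560 of all 14508 genes. The list was not tested as a set. The gene that rose was AGPAT2, which makes phosphatidic acid on the way to triglyceride and phospholipid. It averaged 115 ± 41.9 CPM at 3.33 µg/g (log2 fold change 1.77, edgeR adjusted p = 0.00240) and 112 ± 41.2 CPM at 33.3 µg/g (1.74, adjusted p = 0.00305), against 33.7 ± 5.22 CPM with solvent. P4HB, the partner subunit of MTTP, averaged 1915 ± 96.8 and 1924 ± 180.4 CPM at 3.33 and 33.3 µg/g, against 1588 ± 207 CPM with solvent (edgeR adjusted p = 0.225 and 0.308). LPCAT3, which remodels phospholipids of the lipoprotein, averaged 75.4 ± 14.2 and 75.4 ± 4.14 CPM against 100.7 ± 8.22 CPM (log2 fold change −0.42 at each dose, edgeR adjusted p = 0.0779 and 0.103). With the doses together LPCAT3 fell (−0.42, edgeR adjusted p = 0.0325), and it passed with DESeq2 at each dose (adjusted p = 0.0157 and 0.0204).

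Lipoproteins leave the endoplasmic reticulum in enlarged carriers of the COPII coat. Of 21 genes listed for this export, all 21 were tested. With 3.33 µg/g 1 rose and 0 fell, with 33.3 µg/g 0 passed, and the medians were 0.09 and 0.12. Over all genes 1.38% and 1.08% were called in either direction, so called counts of this size say nothing particular about the list. At each dose 7 of the 21 had an unadjusted p under 0.05, where 2121 and 1560 of all 14508 genes did. The list was not tested as a set. SEC24D, a cargo adaptor of the coat, averaged 97.1 ± 18.7 CPM at 3.33 µg/g against 63.8 ± 4.91 CPM with solvent (log2 fold change 0.60, edgeR adjusted p = 0.0151; 0.0654 with a replicate block). With 33.3 µg/g SEC24D averaged 75.8 ± 6.96 CPM (0.25, adjusted p = 0.459), and its difference between the doses did not pass. MIA2, which helps bulky cargo into these carriers, averaged 130.2 ± 25.7 CPM at 33.3 µg/g against 90.4 ± 6.83 CPM with solvent (0.53, edgeR adjusted p = 0.188). SEC16A and the cargo receptor gene LMAN1 had log2 fold changes of 0.36 each at 33.3 µg/g (edgeR adjusted p = 0.196 and 0.317).

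Of 23 regulators that act on APOB or MTTP in mammals, 22 were tested, and 2 rose at both doses, where 1.07% and 0.937% of all genes were called higher at 3.33 and 33.3 µg/g. The number that fell was 1 at 3.33 µg/g and 0 at 33.3 µg/g, where 0.31% and 0.145% of all genes were called lower. With the doses together against solvent 2 rose and 1 fell, where 1.39% and 0.579% of all genes were called higher and lower. CEBPB, a liver transcription factor of the C/EBP family, averaged 176 ± 9.84 CPM at 3.33 µg/g (log2 fold change 1.25, edgeR adjusted p = 2.50e-05) and 191 ± 33.9 CPM at 33.3 µg/g (1.37, adjusted p = 2.74e-05), against 73.9 ± 5.85 CPM with solvent. NR2F1, an orphan nuclear receptor also called COUP-TFI, averaged 175 ± 26.1 CPM at 3.33 µg/g (0.97, edgeR adjusted p = 0.00117) and 171 ± 28.6 CPM at 33.3 µg/g (0.93, adjusted p = 0.00163), against 89.7 ± 11.3 CPM. In mammals NR2F1 is known to lower transcription from the APOB promoter. The list as a whole had medians of −0.24 and −0.09, with 5 and 7 of 22 values above 0. At each dose 10 of the 22 had an unadjusted p under 0.05, where 2121 and 1560 of all 14508 genes did, and the list was not tested as a set. Without both libraries of low albumin share, AGPAT2, CEBPB and NR2F1 passed at both doses and SEC24D and CEBPA at 3.33 µg/g (edgeR adjusted p = 0.0363 and 0.0456).

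With each dose taken alone against solvent, 1 regulator passed as lower, at 3.33 µg/g. Its difference between the doses did not pass (edgeR adjusted p = 0.947). CEBPA, a family member tied to hepatocyte maturity, averaged 219.8 ± 57.1 CPM there, against 364 ± 54.4 CPM with solvent (log2 fold change −0.73, edgeR adjusted p = 0.0498). With 33.3 µg/g CEBPA averaged 265 ± 43.2 CPM (−0.46, adjusted p = 0.308). The CEBPA call ended without any of solvent replicates 1, 2, 3 and 4 or of replicates 2, 3, 4 and 5 at either dose (edgeR adjusted p up to 0.117). It also ended with a replicate block (0.118), limma-voom (0.052), RLE factors (0.0501) and a fit of only the groups compared (0.0805). The coactivator gene PPARGC1A averaged 7.98 ± 1.29 and 7.32 ± 1.20 CPM at 3.33 and 33.3 µg/g, against 11.2 ± 2.04 CPM (edgeR adjusted p = 0.159 and 0.102). HNF4A, an activator of both genes in mammals, was singled out after its values were seen. It averaged 34.9 ± 7.74 and 42.2 ± 9.50 CPM at 3.33 and 33.3 µg/g, against 55.3 ± 10.8 CPM with solvent (log2 fold change −0.66 and −0.39, edgeR adjusted p = 0.0844 and 0.449).

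**Figure D5:**
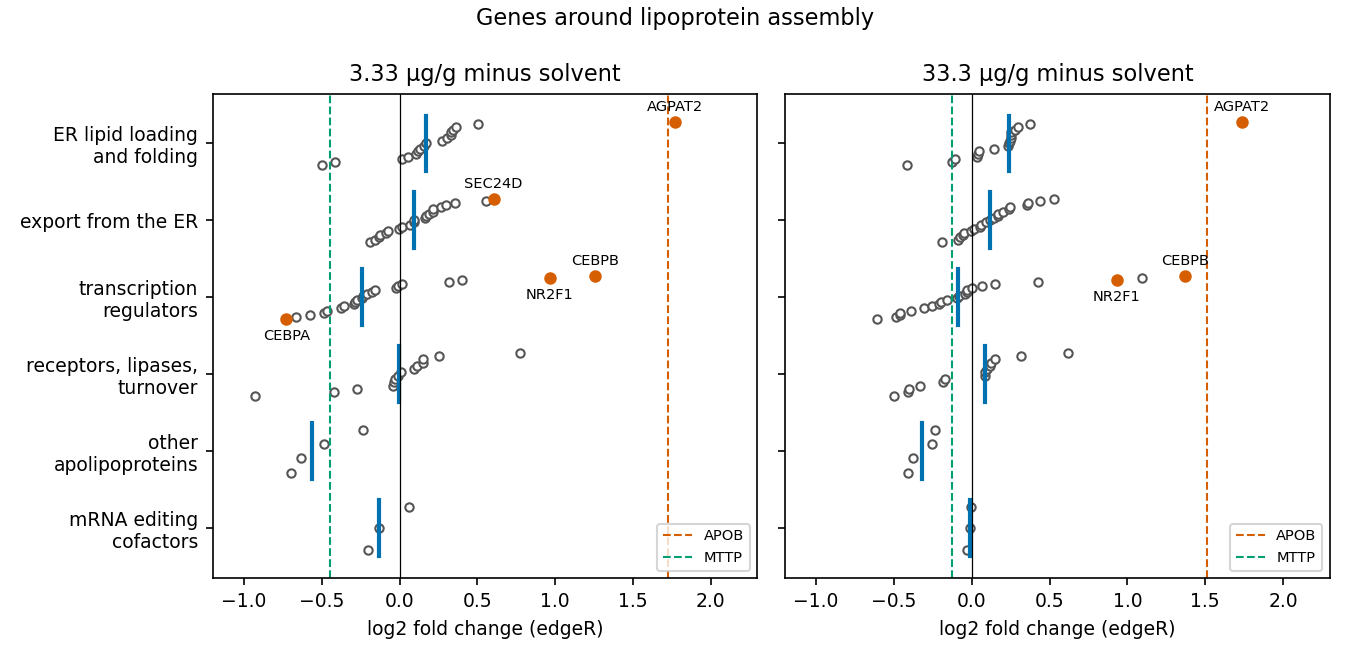
Log2 fold changes of the tested genes of 6 lists around lipoprotein assembly, at 3.33 µg/g (left) and 33.3 µg/g (right) minus solvent. Filled, named points passed an adjusted p under 0.05, the short vertical bars are list medians and the dashed lines mark APOB and MTTP. AGPAT2, at 1.77 and 1.74, and CEBPB, at 1.25 and 1.37, are the points farthest to the right, on either side of the APOB line at 1.51 in the panel for 33.3 µg/g.

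Of 16 genes listed for uptake and breakdown of the particles, 14 were tested. With 1.38% and 1.08% of all genes called at 3.33 and 33.3 µg/g, the count of 0 by edgeR at either dose says nothing particular about them. At the doses in this order 5 and 1 of the 14 had an unadjusted p under 0.05, where 2121 and 1560 of all 14508 genes did. The medians were 0.00 at 3.33 µg/g and 0.08 at 33.3 µg/g. VLDLR, the receptor through which the avian oocyte takes up yolk lipoprotein, averaged 3.14 ± 0.991 and 2.81 ± 0.766 CPM at 3.33 and 33.3 µg/g, against 1.83 ± 0.341 CPM (edgeR adjusted p = 0.144 and 0.364). The hepatic lipase gene LIPC averaged 1107 ± 315 and 1179 ± 211 CPM against 1483 ± 166 CPM (edgeR adjusted p = 0.305 and 0.573). VCP, which draws apolipoprotein B out of the reticulum for degradation, had log2 fold changes of 0.09 and 0.15 (edgeR adjusted p = 0.657 and 0.554).

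Of 8 other secreted apolipoproteins listed, 4 were tested, and 0 passed in edgeR at either dose. These are too few genes to set against the 1.38% and 1.08% called over all genes. At 3.33 and 33.3 µg/g 1 and 0 had an unadjusted p under 0.05, where 2121 and 1560 of all 14508 genes did. All 4 values were below 0, with medians of −0.56 at 3.33 µg/g and −0.32 at 33.3 µg/g. APOA1, the main protein of high density lipoprotein, averaged 4244 ± 1551 and 5171 ± 1278 CPM at 3.33 and 33.3 µg/g, against 6879.7 ± 737 CPM with solvent (edgeR adjusted p = 0.159 and 0.570). APOA5 and APOH had log2 fold changes of −0.38 and −0.23 at 33.3 µg/g (edgeR adjusted p = 0.778 and 0.869). In mammals an editing complex shortens apolipoprotein B in the intestine. Its cofactor genes A1CF, RBM47 and SYNCRIP, the 3 tested of 4 listed, had log2 fold changes of −0.20 to 0.06 with 3.33 µg/g and −0.03 to −0.01 with 33.3 µg/g, and none passed (edgeR adjusted p = 0.560 to 0.989).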

How the data were processed

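Values deposited for each transcript entry are estimated counts (expected counts), not normalized. The authors made them with kallisto, per the submitters' processing notes. Its version, index and build were not given in the sources used here. All 47418 entries were summed per gene ID and rounded. Of 20308 gene IDs, 18900 matched the Coturnix japonica 2.1 gene table, which gave symbols for 12972. No sequences were used here.

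edgeR 4.0.16 in R 4.3.3 was run with filterByExpr by group, TMM scaling and the robust quasi-likelihood test in 1 fit of 15 libraries. It tested 14508 genes. P-values were adjusted by the Benjamini-Hochberg method over these genes, with a threshold of 0.05. SE was taken as the size of the log2 fold change over the root of F. CPM are counts per 1e+06 of TMM-scaled totals. Ratios and correlations used exact or 100000-resample permutation tests (scipy 1.17.1). The edgeR gene test was tried on simulated counts, and the permutation test of means was checked on random values. The other steps were not tried on simulated data.

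Named from each list were genes that passed at either dose and the 3 with the smallest p at 33.3 µg/g. CUBN, HNF4A, the neighbouring genes and the named markers were chosen after their values were seen. For likeness, the 5 genes with the highest r were named. Members, lists and alternatives were chosen with earlier results of these data known. Alternatives were RLE or no factors, 2 other filters, DESeq2 1.42.0, limma-voom (limma 3.58.1), fits of the compared groups, a replicate block, totals without the 5 genes above 1% of counts, and libraries left out.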

Additional observations from a re-analysis of the deposited data

Results flagged for a closer look

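One value stood apart. Albumin took 4.85% of the counts in 3.33 µg/g replicate 4, and the next lowest library of that dose had 9.71%, a gap of 0.717 of the range of the group. Of 15 groups of values examined for such gaps, for the APOB and MTTP levels, their ratio and the APOB and albumin shares, 1 was marked. Chance marks about 1 in 20. The APOB and MTTP values of this library were within the range of the other libraries of its dose.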

How the results depend on the processing

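APOB kept its direction and its call against solvent in every alternative and with each library left out, and MTTP kept its direction and did not pass in any of them. Leaving out 1 library gave APOB 1.60 to 1.80 (log2) at 3.33 µg/g, 1.46 to 1.56 at 33.3 µg/g and −0.29 to −0.09 between the doses, and MTTP −0.52 to −0.38, −0.21 to −0.06 and 0.24 to 0.40. The APOB to MTTP log2 differences against solvent, 2.14 and 1.64, became 1.95 and 1.64 with medians (adjusted exact permutation p = 0.0714 each). The median test cannot give a smaller unadjusted p for groups that do not overlap, so its p does not speak against the result. Counts of genes called were 656, 386, 19 and 703 with DESeq2 at 3.33 µg/g, at 33.3 µg/g, between the doses and for both doses together, against 200, 157, 0 and 285 with edgeR, and 117, 101, 0 and 165 with the replicate block. With 1 library left out they were 111 to 264, 93 to 194, 0 and 147 to 334; the lowest came without solvent replicate 1 for each dose and without solvent replicate 4 for both. No pairing by number was visible in the counts. Deviations from group means correlated above 0.1 in 1 of 15 same-numbered pairs, and no library had its highest correlation with its number (0 of 15). These values cannot show whether same-numbered libraries were handled together, which the labels do not say. With the replicate block the log2 fold changes of APOB and MTTP kept their calls. Fitted as entries kept apart, 26825 in all, APOB had 1.73 and 1.52 and MTTP −0.44 and −0.12 at the doses. Shares of transcript entries were not run, since each gene has 1 entry.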
